A study of Homo sapiens with 12 samples.

Results

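The comparison described here is the effect of IL-17 on RNA recovered with FLAG-tagged ARID5A from HK2 cells, an established line of human kidney epithelium. Its members are the 6 FLAG libraries of a series of 12, taken by their column names: 3 from cells stimulated with IL-17 (200 ng/mL, 3 h) and 3 from cells left in medium. All 12 libraries, controls included, came from cells that received 10 µg of a plasmid coding for FLAG-hArid5a. The other 6 libraries came from the same 2 treatments precipitated with mouse IgG1 and serve as the background. FLAG precipitates therefore hold ARID5A supplied by transfection in both treatments, and untransfected cells are not analysed here. The labels do not state that replicates were separate cultures. All p-values therefore refer to the spread among these libraries, part or all of which may be technical.

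RNA immunoprecipitation recovers a protein from a lysate together with the RNA attached to it, and the RNA is then sequenced. ARID5A belongs to the AT-rich interaction domain family and is known to bind and stabilise messenger RNAs of inflammatory genes, IL6 being the best studied. IL-17 acts on epithelial cells largely by inducing chemokines, cytokines and antimicrobial proteins, in part by prolonging the life of their messenger RNAs. Cells also hold small noncoding RNAs, such as those of the spliceosome, the ribosome and RNA-processing enzymes, which are short and often encoded by many near-identical gene copies.

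The deposited tables give 60708 features by versioned Ensembl identifier and do not pair them with gene names, and 0 identifiers matched the reference table. Messenger RNAs and small noncoding RNAs could therefore not be told apart by name, the gene lists could not be applied, and the cell type could not be set against its markers. Nor could the level of ARID5A be given. Features were separated instead by length, which the deposited tables carry indirectly: an estimated count divided by TPM is proportional to the feature's effective length, the number of positions at which a fragment can start. Each ratio was divided by the median of tested features in its library. The class of a feature was set by the median of its ratios over the FLAG libraries. Effective length depends on the fragment lengths of a library, so a feature's ratio can differ between libraries. Differences of this ratio between the treatments, and their bearing on the results by class, were not tested. Features under 1/32 of that median are called very short, those from 1/32 up to 1/4 short, and the rest longer. A length class is not an RNA class: which features are small noncoding RNAs or messenger RNAs was not tested.

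Total estimated counts ran from 13653400 to 17723100 in the FLAG IL-17 libraries and from 2402390 to 7563480 in the FLAG medium libraries, without overlap. A count of 0 allows up to 0.22 CPM (counts per 1000000 of the library's total) in the shallowest IL-17 library and 1.25 CPM in the shallowest medium library, from a floor of 3 counts that covers counting error only. Log2 CPM of tested features correlated at 0.957 to 0.968 among IL-17 libraries and at 0.561 to 0.787 among medium libraries. The median standard deviation of a feature over its 3 libraries was 0.278 log2 units with IL-17 and 0.938 in medium. The spread was thus larger among the medium libraries.

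More features rose than fell with IL-17 in the fit reported here, a balance that other settings turned. Fitted on the 6 FLAG libraries alone, edgeR's quasi-likelihood test called 60 of 17639 tested features higher after IL-17, 0.34%, and 8 of them lower, 0.0454%, with Benjamini-Hochberg adjusted p under 0.05. This balance turned to 61 higher and 116 lower with scaling by library size alone, and to 538 and 2060 by DESeq2. It also turned with TMM scaling kept, to 168 higher and 707 lower with edgeR's adjusted deviances and to 350 and 991 without the filter on low counts. The libraries of both treatments did not overlap for any of these 68 features. Such separation was common in the whole table: 17.5% of tested features lay higher without overlap and 15.1% lower. Before adjustment, a p under 0.05 was reached by 1284 features (7.28%) in the higher direction and 2338 (13.3%) in the lower, so the balance of calls and that of unadjusted values ran opposite ways. The number of higher features was 117 when FLAG medium replicate 1 was left out. It was 0 when replicate 2 or 3 of that group was left out, where 2175 and 2078 had a raw edgeR p under 0.05. It lay between 42 and 53 without any 1 IL-17 library. The 8 lower features became 54 when FLAG medium replicate 1 was dropped, 1 when replicate 3 of the IL-17 group was dropped and 0 when any other library was. In those fits with 0 lower calls, between 1510 and 4370 features fell on that side with a raw edgeR p under 0.05.

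The features that rose were mostly very short. Of 251 very short features in the table, 228 passed the filter on low counts, and 46 of these were called higher and 0 lower, with 114 and 0 at a raw edgeR p under 0.05. The 46 are 20.2% of the tested very short features, against 0.34% of all tested features. This share counts near-identical copies separately. With features of identical rounded counts taken as 1 profile, 28 of 206 very short profiles were called higher, against 41 of 17587 over all tested features. A new fit with identical features kept once called 22 very short features higher. Among the 466 short features, 6 were called higher and 1 lower. Among the 16045 longer features, 6 were called higher and 7 lower. A further 41 tested features had counts but a TPM of 0 in every library with at least 20 counts, so they have no length here, and 2 of them were called higher. The last 859 tested features had too few counts for a length, and 0 of them were called by edgeR, with 31 above and 83 below at a raw p under 0.05. The number of very short features called higher fell from 46 to 0 without FLAG medium replicate 2 or 3, while 98 and 143 of them had a raw edgeR p under 0.05 in that direction. It was 40 to 49 with other scaling factors.

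The shift extended beyond the called features. With the 46 called features included, the log2 fold change was positive for 205 of 228 very short features, 89.9%, against 48.9% of all tested features. Its median was 1.92 in the very short class, with quartiles of 0.96 and 3.63, and -0.03 over all tested features. Short features had a median of 0.15 and longer features one of -0.02. Libraries did not overlap for 98 of the very short features in the higher direction, 43%, and for 1 in the lower direction. Near-identical copies are counted separately in these numbers. A length needed at least 20 counts in a FLAG library, which the deeper IL-17 libraries reach more easily. How far that favoured positive changes in this class was not tested. The very short median stayed between 1.38 and 2.64 when any 1 FLAG library was left out. Scaling by library size alone moved the median of all tested features to -0.46 and that of the very short class to 1.41, so the distance between both changed little. Under that scaling and under upper-quartile factors the median of the short class was negative, at -0.24 and -0.05.

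**Figure D1:**
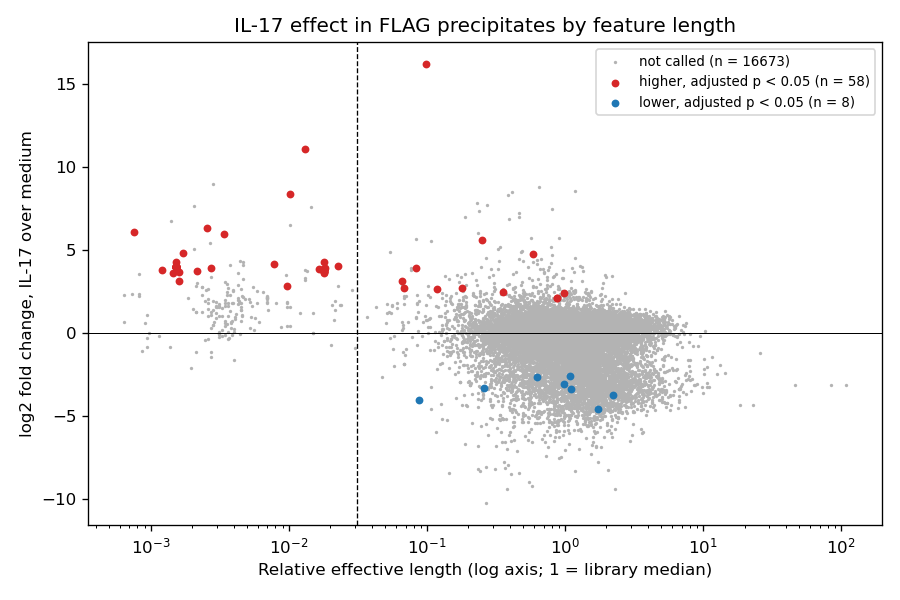
Log2 fold change of IL-17 over medium in FLAG libraries (vertical axis) against relative effective length (horizontal log axis, 1 being the library median) for each tested feature with a length; red and blue points passed adjusted p under 0.05 and the dashed line is the limit of 1/32. Of the 60 higher features 58 have a length and are drawn, 46 of them left of the line, and all 8 lower features lie to its right.

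The share of a library taken by very short features moved the same way. It was 6.41%, 9.96% and 13.4% of estimated counts in FLAG IL-17 replicates 1, 2 and 3, and 3.07%, 2.15% and 3.84% in FLAG medium replicates 1, 2 and 3. The treatments did not overlap, and the means were 9.92 ± 3.5% (SD, n = 3) with IL-17 and 3.02 ± 0.846% (SD, n = 3) in medium. The exact two-sided permutation p was 0.1, the smallest that 3 against 3 libraries allow, and 0.12 after adjustment over 6 measures. Longer features took 77.3 ± 5.44% (SD, n = 3) with IL-17 and 89.2 ± 1.46% (SD, n = 3) in medium (exact permutation p = 0.1). Since TPM divides by length, very short features made up 85%, 85.3% and 89.7% of all TPM in the IL-17 libraries and 83.1%, 71.7% and 83.2% in the medium libraries. TPM of a longer feature therefore also moves with the reads of very short ones.

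IgG libraries showed a shift in the same class, with overlap. Very short features took 7.29%, 13.5% and 15.2% of counts in IgG IL-17 replicates 1, 2 and 3 and 11.1%, 1.47% and 3.06% in IgG medium replicates 1, 2 and 3 (exact two-sided permutation p = 0.2). IgG medium replicate 1, at 11.1%, was the shallowest of the 12 libraries, with a total of 746911.

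**Figure D2:**
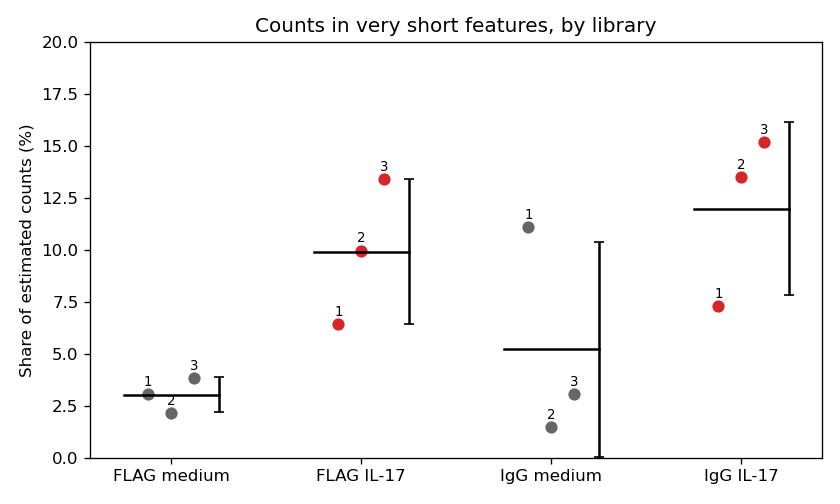
Share of estimated counts in very short features (percent) for each library of the 4 groups, with replicate numbers; horizontal bars are means and vertical bars 1 SD (n = 3). The FLAG IL-17 libraries lie between 6.41% and 13.4% and the FLAG medium libraries between 2.15% and 3.84%, while IgG medium replicate 1 lies at 11.1%, among the IL-17 libraries.

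Many of the higher features shared their reads. Of the 60, 51 had estimated counts that were not whole in at least 1 FLAG library, which arises when reads that match several features are divided among them. Such counts were common in the whole table: 37.8% of all tested features had them, 65.8% of the very short and 64.2% of the short ones. Identical rounded counts in all 6 libraries left 41 distinct profiles among the 60, and 17587 among all 17639 tested features. Joining features with equal counts of at least 10 in at least 4 of the 6 libraries gave 34 groups: 3 groups with 29 features in all, and 31 features alone. The 60 calls are thus not 60 independent measurements.

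The largest of these groups held 16 very short features with the same counts in 5 of 6 libraries. Their summed level was 3780, 10700 and 7460 normalised CPM in FLAG IL-17 replicates 1, 2 and 3 and 465, 576 and 341 in FLAG medium replicates 1, 2 and 3. All IL-17 libraries were above all medium libraries, which the choice of called features favours. The log2 fold changes of the members ran from 3.96 to 4.04. A group of 11 very short features, equal in 4 libraries, summed to 1710, 3580 and 2230 normalised CPM with IL-17 and to 178, 257 and 103 in medium. Its members' log2 fold changes ran from 3.6 to 3.88. The third group, a pair of longer features with identical counts throughout, summed to 266, 438 and 398 normalised CPM with IL-17 and 74.3, 110 and 68.4 in medium. A sum within a group does not depend on how reads were divided inside it, though other features outside the group may share them too.

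Over all 46 very short features that rose, log2 fold changes ran from 2.84 to 11.12 with a median of 3.96. Their median level was 156, 367 and 203 normalised CPM in FLAG IL-17 replicates 1, 2 and 3 and 16.2, 23.4 and 9.36 in FLAG medium replicates 1, 2 and 3. In all 3 IL-17 libraries the median was thus above every medium library, which the choice of features called higher in these libraries favours. Replicate 2 was the highest of each treatment. For 34 of the 46, the mean level with IL-17 was above 100 CPM. At an equal depth of 2402382 counts per library, 42 very short features were called higher.

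**Figure D3:**
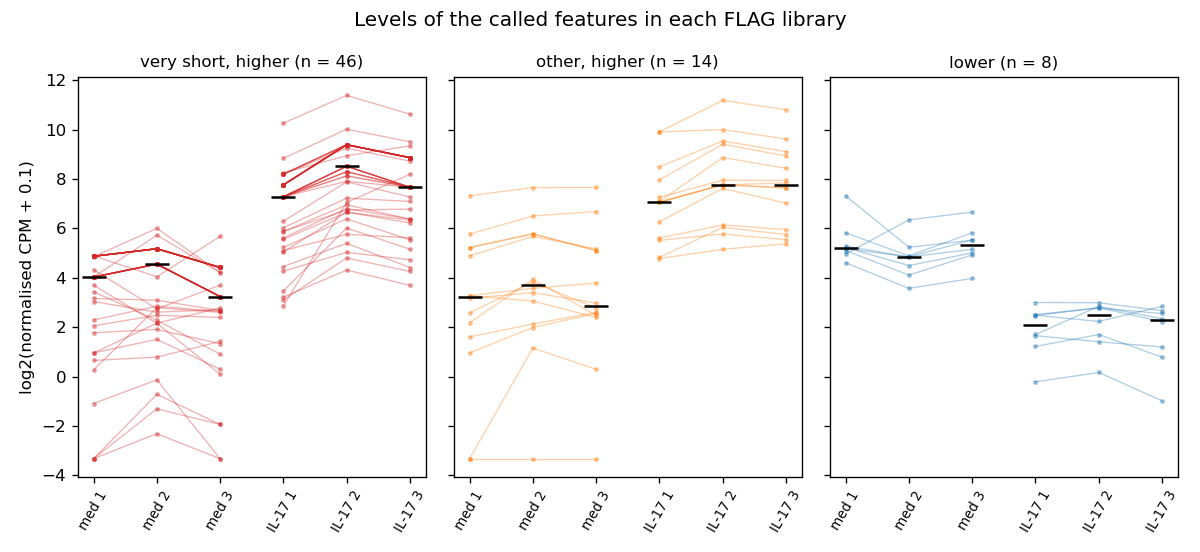
Level of each called feature in each FLAG library as log2(normalised CPM + 0.1), for the 46 very short higher, 14 other higher and 8 lower features; a line joins 1 feature's values within a treatment and black bars are medians. In each panel the 3 medium libraries and the 3 IL-17 libraries are separated for every feature drawn, which the choice of called features favours.

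The feature with the largest fold change was ENSG00000277209.1, in the short class with a relative length of 0.0988. Its level was 957.1, 1027 and 785.2 normalised CPM in FLAG IL-17 replicates 1, 2 and 3, from 17556, 12032 and 9638 counts. No count fell on it in any FLAG medium library. It therefore passed the filter on low counts, and got its length, through the IL-17 libraries alone, where it was high. Its adjusted p and fold bound are no separate support for that choice. In the 3 FLAG IL-17 libraries its estimated counts were not whole, as when reads are divided among several features. Whether that division bears on the count of 0 in medium was not tested, and the floor covers counting error only. The mean with IL-17 was 923 ± 124 CPM (SD, n = 3), at least 5764-fold above the floor of 3 counts over the 3 medium libraries (edgeR adjusted p = 0.00416). Without FLAG medium replicate 2 or 3, where edgeR called 0 features of any kind in either direction, ENSG00000277209.1 had an adjusted p of 0.0954 and 0.0919. Its fitted log2 fold change was 16.22 and 16.35 in those fits, against 16.2 with all 6 libraries. With 0 counts in every medium library, the size of this fitted value is not measured. Its steadiness without 1 medium library is therefore no support.

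ENSG00000207005.1, very short with a relative length of 0.0132, came next. It had 7.2, 132.6 and 291.9 normalised CPM in FLAG IL-17 replicates 1, 2 and 3, a spread far wider than that of ENSG00000277209.1. In medium it had 1 rounded count over 3 libraries, in replicate 2, against 5268 with IL-17. ENSG00000207005.1 too passed the filter on low counts through the IL-17 libraries alone. The ratio scaled to effective library sizes was 2337, and counting error alone gives it an exact 95% interval from 419 to 92311 (edgeR adjusted p = 0.0434). Its estimated counts were not whole in any FLAG library. ENSG00000207005.1 lost its call without any 1 FLAG medium library, with edgeR adjusted p of 0.0701 to 0.125 and fitted log2 fold changes of 10.88 to 13.56, against 11.12 with all 6. It also lost it under RLE and upper-quartile factors, after thinning and with a stricter filter, at adjusted p of 0.0507 to 0.0759.

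The 14 other higher features included the 2 called features with a TPM of 0. Those have no length here, so they may be as short as the very short class. Their log2 fold changes ran from 2.12 to 16.2, with a median of 2.95. The highest is the fitted value of ENSG00000277209.1, which had 0 counts in medium. Their median level was 134, 219 and 214 normalised CPM in FLAG IL-17 replicates 1, 2 and 3 and 9.23, 12.9 and 7.26 in FLAG medium replicates 1, 2 and 3. The 6 longer features among them had relative lengths of up to 0.982. The steadiest rose from 8.87, 10.5 and 7.75 normalised CPM in medium to 45.7, 54.7 and 46.5 with IL-17, a log2 fold change of 2.43 ± 0.31 (SE, edgeR adjusted p = 0.0131). This feature was singled out after its values were seen. The count of 14 became 61 when FLAG medium replicate 1 was dropped. Dropping replicate 2 or 3 of the IL-17 group gave 5 and 4, and dropping replicate 2 or 3 of the medium group gave 0, with 2077 and 1935 other features at a raw edgeR p under 0.05 in the higher direction. Leaving out all very short features before scaling left 4 of the other features called higher and 0 of any length lower. In that fit 2280 lay below at a raw edgeR p under 0.05, and features without a length stayed in.

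The 8 features that fell had log2 fold changes from -4.53 to -2.57. Of these, 7 were in the longer class, which holds 91% of all tested features. Called lower were 0.0436% of longer features and 0.0454% of all tested features, so the share in the longer class was near the background. Their median level was 36.8, 28.7 and 40.7 normalised CPM in FLAG medium replicates 1, 2 and 3 and 4.31, 5.68 and 4.77 in FLAG IL-17 replicates 1, 2 and 3. In medium these medians were above those of the features that rose, and with IL-17 they were below them. The choice of features by their direction favours this order, so it is a description only. The treatments did not overlap for any of them, and the lowest medium value was 11.8.

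ENSG00000154783.12, of relative length 1.73, fell the most. It had 24.4, 11.8 and 15.7 normalised CPM in FLAG medium replicates 1, 2 and 3 and 0.763, 1.02 and 0.407 in FLAG IL-17 replicates 1, 2 and 3, all from whole counts. This gave a log2 fold change of -4.53 ± 0.72 (SE; adjusted p = 0.0459 by edgeR). ENSG00000286032.1, in the short class at 0.0871, had 159.2, 37.6 and 45.8 normalised CPM in medium and 3.16, 7.08 and 4.97 with IL-17. Replicate 1 of medium stood well above the other medium libraries for it. This gave a log2 fold change of -3.99 ± 0.64 (SE; adjusted p = 0.0462 by edgeR). Estimated counts of ENSG00000286032.1 were not whole in any FLAG library. Both lost their calls without any 1 FLAG library other than FLAG medium replicate 1, with edgeR adjusted p of up to 0.384 for ENSG00000154783.12 and 0.256 for ENSG00000286032.1. Over the fits that left out 1 library, the log2 fold change of ENSG00000154783.12 ran from -4.68 to -4.03 and that of ENSG00000286032.1 from -4.24 to -3.04. In the 12-library model neither was called, with edgeR adjusted p of 0.328 and 0.0907.

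Among longer features the fold change depended on level. When the 16045 were split into 4 equal bands by mean normalised CPM over the 6 libraries, the median log2 fold change was -1.56 in the lowest band (up to 4.88 CPM), -0.52 in the next, 0.17 in the third and 0.37 in the highest (from 34.9 CPM). With a raw edgeR p under 0.05, the lowest band held 75 features above and 899 below, and the highest band 634 above and 111 below. The spread moved with level too: the median SD over 3 medium libraries was 1.71 log2 units in the lowest band and 0.534 in the highest, against 0.589 and 0.153 with IL-17. Without FLAG medium replicate 1 the band medians were -0.9, -0.22, 0.15 and 0.21. With scaling by library size alone they were -1.99, -0.96, -0.26 and -0.05, so the sign of the 2 upper bands depended on the scaling, while their order did not. At an equal depth of 2402382 counts per library the medians of the same bands were -0.54, -0.44, -0.09 and 0.11, in the same order but closer together, and the third was negative. The filter then left 462 of the 4012 features of the lowest band. How much of the dependence on level comes with the difference in depth was not tested further. The filter kept features that reached a minimum level in at least 3 of the 6 libraries, whatever their treatment. Near that minimum it can favour features high in 1 treatment, and its part in these medians was not tested.

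Detection depended on depth. At full depth, 874 features had counts in all 3 FLAG IL-17 libraries and 0 in all 3 medium libraries, and 88 the reverse. After thinning every library to 2402382 counts these numbers were 248 and 429. At that depth FLAG medium replicate 1 held 28364 features, against 24703 and 21060 in the other medium libraries and 24132, 24672 and 18983 in FLAG IL-17 replicates 1, 2 and 3.

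The same contrast in the IgG precipitates gives the background of these effects. In 1 model of all 12 libraries, the 46 very short features had a median log2 fold change of 4.18 in FLAG and 2.65 in IgG, and 46 of 46 were positive in IgG. Over all 24040 features of that model the median was -0.29 in FLAG and 0.18 in IgG. The 46 are not independent: the largest read-sharing group, of 16 features, has the same IgG value of 1.67 throughout. The 14 other higher features had medians of 3.15 in FLAG and 1.77 in IgG, with 13 of 14 positive in IgG. Of the 60 higher features, 2 passed the threshold in IgG, where 0.0125% of the 24040 features in that model did so in the higher direction. The 8 lower features had medians of -3.15 and -1.42, and 2 of the 8 were positive in IgG. On the scale of that model the very short features had median levels of 48.8, 10.4 and 6.28 CPM in IgG medium replicates 1, 2 and 3 and of 64.5, 230 and 126 CPM in IgG IL-17 replicates 1, 2 and 3. IgG medium replicate 1 thus lay close to IgG IL-17 replicate 1, where the FLAG treatments did not overlap. These features were chosen for their change in FLAG, so a smaller value in IgG is a description and not a test.

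The difference between the IL-17 effects in FLAG and in IgG passed the threshold for 0 of 24040 features by edgeR. A raw p under 0.05 was reached by 1767 (7.35%), and the smallest adjusted p was 0.373. The model held 4 group means and no term for replicate number. Whether FLAG and IgG libraries of the same number shared a lysate is not known, and such pairing was not tested. The lack of calls therefore does not show that both effects are equal. Of the 1767, the effect in FLAG was above that in IgG for 258 (1.07%) and below it for 1509 (6.28%). Of the 60 higher features 27 were among the 258, and of the 8 lower features 4 were among the 1509. These features were chosen by their change in FLAG, which favours such differences, so nothing is read from those counts. The largest such difference among the called features was that of a very short feature with 1228, 2679 and 1579 normalised CPM in FLAG IL-17 replicates 1, 2 and 3 and 10.7, 4.78 and 1.78 in FLAG medium replicates 1, 2 and 3. Its log2 fold change in the 12-library model was 7.64 higher in FLAG than in IgG, where it was 1.01. ENSG00000277209.1 was likewise at 0 counts in the IgG medium libraries and had 278.7, 1031 and 547 CPM in IgG IL-17 replicates 1, 2 and 3. ENSG00000207005.1 was recovered in IgG IL-17 replicate 3 at 110.6 CPM, and at 0.123 and 0 CPM in IgG IL-17 replicates 1 and 2. For ENSG00000154783.12 the log2 fold change in IgG was -3.05 (edgeR adjusted p = 0.865), and its IgG medium libraries ran from 0 to 42.4 CPM. For ENSG00000286032.1 it was 0.08 in IgG, with IgG medium libraries between 2.31 and 69.2 CPM, and the difference between antibodies was -3.74 ± 1.14 (SE, edgeR adjusted p = 0.664).

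**Figure D4:**
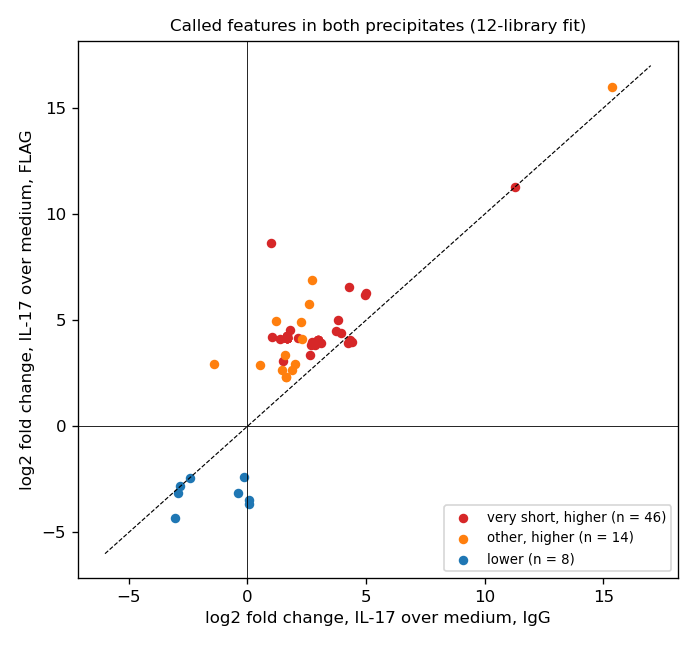
Log2 fold change of IL-17 over medium in FLAG (vertical axis) against that in IgG (horizontal axis), both from the 12-library model, for the 60 higher and 8 lower features; the dashed line marks equal values. Of the higher features, 59 lie to the right of 0 on the IgG axis and most lie above the dashed line, which the choice of features by their FLAG change favours.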

How the data were processed

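Libraries were grouped by the sample titles. The authors deposited estimated counts per feature. A table they deposited under the name FPKM was used as TPM, since every column has the same sum of 1000000 within rounding. RSEM 1.3.1 and STAR 2.7.9 are named, per the submitters' processing notes, as are R 4.2.0, DESeq2 1.36.0 and the builds hg38 and GRCh38. Which tool made which table, the annotation and the strand setting are not stated there. Counts were rounded. Features passing filterByExpr at a minimum count of 10 were TMM-scaled and tested with edgeR 4.0.16 in R 4.3.3 on the 6 FLAG libraries (common dispersion 0.426), Benjamini-Hochberg adjusted over 17639 features. Normalised CPM uses TMM-scaled library sizes. A standard error is the log2 fold change over the square root of F. Whole means within 0.005. Length ratios needed at least 20 counts and 0.2 TPM. Exact permutation tests used scipy 1.17.1. The procedure was also run on simulated data with 1 common dispersion (0.426) for both treatments and no shared reads. That run does not cover the unequal spread or the read sharing of these libraries.

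Features, lists and classes were chosen with earlier results of these data known, and length classes after seeing the files, in place of the planned separation by name. The rule for named features took the largest changes among calls with at least 5 CPM in the higher group and no overlap. It left 41 higher and 8 lower, of which 2 identifiers per direction are printed because names are lacking. The 15 gene lists (284 entries) and 25 small RNA family patterns were not applied for the same reason, so no list has a result. No sequence is shown.

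The alternatives were other scaling factors, filters, fits and tools (DESeq2 1.42.0, limma 3.58.1), thinning, a replicate block, and leaving out each library.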

Additional observations from a re-analysis of the deposited data

How the results depend on the processing

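Counts follow the order all higher (60), very short higher (46), other higher (14) and all lower (8), by edgeR unless a tool is named. Leaving out very short features, keeping identical features once, adjusted deviances and other class limits were chosen after seeing the data. Removing features or libraries also changed which features passed the filter, the scaling factors and the estimated spread. Why a setting moved a count was not tested. DESeq2 gave 538, 98, 440 and 2060, adjusted deviances 168 all higher, 104 other higher and 707 lower, and no filter 350, 123, 227 and 991. Limma gave 9, 7, 2 and 1 on log2(TPM + 1) and 8, 6, 2 and 1 on log2(TPM + 0.1). Keeping identical features once gave 32 all higher and 22 very short higher. Leaving out very short features gave 4 all higher, 4 other higher and 0 lower. Lower features numbered 1 with all 12 libraries, 116 with library size only, 36 with the strict filter of 50 counts and 27 after thinning. Leaving out 1 library gave 0 to 117 all higher, 0 to 56 very short higher, 0 to 61 other higher and 0 to 54 lower. The replicate block gave 97 all higher, 35 other higher and 90 lower. Replicate numbers were not taken as pairs: same-numbered libraries' deviations from their group means correlated at 0.041, -0.101 and 0.227, and no label says what a number marks. No named feature changed sign. Over the alternatives that left no library out, ENSG00000277209.1 kept its call in 15 of 15, ENSG00000154783.12 in 10 of 15, ENSG00000286032.1 in 9 of 15 and ENSG00000207005.1 in 9 of 14. ENSG00000154783.12 lost it with all 12 libraries, in both limma fits, with identical features kept once and without very short features. ENSG00000286032.1 lost it with all 12 libraries, RLE and upper-quartile factors, the robust fit, identical features kept once and without very short features. ENSG00000207005.1 lost it with RLE and upper-quartile factors, the strict filter, thinning and identical features kept once. Fits of messenger RNAs alone, fits leaving out the transfected gene and fits on summed RNA families were not run, for lack of gene names.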
